A study of Mus musculus with 4 samples.

Results

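Slpi, Wfdc2, Spink1 and Spink4 encode small secreted protease inhibitors that epithelia of the gut and airways release onto their surface. These 4 of the 55450 genes in the count tables were described across the epithelial cells of 2 mouse intestinal libraries, one labelled NPs (1 week of NPs treatment) and one labelled UNTX (untreated). They were chosen by their symbols with earlier results of these libraries in view, including their levels by cell class and library, so those levels and differences are given as a description and carry no test. All 4 were found by symbol. The labels do not spell out the abbreviation NPs.

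Secreted inhibitors fold tightly around disulphide bonds and block serine proteases by presenting a loop that the protease binds but releases slowly. Slpi, the secretory leukocyte protease inhibitor, and Wfdc2, also called HE4, carry whey acidic protein (WAP) domains. Slpi blocks neutrophil elastase and cathepsin G and restrains inflammatory signalling in leukocytes, and Wfdc2 is a product of mucosal epithelia. Spink1 and Spink4 carry a Kazal domain. Spink1 blocks trypsin and is best known from the pancreas, and Spink4 is a secreted product of intestinal goblet cells.

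The study profiled single cells with droplet-based 3' sequencing, in which each captured transcript is counted once by its unique molecular identifier (UMI). The labels give 4 libraries, an NPs and an UNTX library from intestine and a pair from brain, with 1 library per group. NPs treatment lasted 1 week for the intestine and 2 months for the brain. The animals were wild-type mice, BALB/c of 5 weeks and ICR of 6 months, and the labels do not say which strain gave which tissue or how many animals entered a library. All groups went through the same enzymatic dissociation, red cell lysis and dead-cell removal. The series text speaks of colon and the sample labels of intestine. With 1 library per group, treatment, strain, animal, gut segment and library cannot be told apart, and every interval below is a 95% interval that covers counting error alone.

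The depth was similar, with 127772838 UMIs over 19918 barcodes in the NPs intestine and 116394801 UMIs over 20368 barcodes in the UNTX intestine. After filters on depth, genes, mitochondrial share and doublets, 10556 NPs cells and 16855 UNTX cells remained. The mitochondrial limit removed 46.5% of the NPs barcodes and 16.7% of the UNTX barcodes. The 2 libraries shared 104 barcodes. Cells were clustered jointly without the 4 genes and their relatives, and clusters were named by likeness to marker genes. Goblet-like cells (3202 NPs, 1309 UNTX) were named from 13 to 15 of 15 markers, absorptive-like cells (2115 and 3192) from 12 to 14 of 15, and enteroendocrine-like cells (130 and 267) from 10 of 13. Cycling-like cells (812 and 1476) rested on 9 of 12 markers in the NPs cluster and 7 of 12 in the UNTX cluster, which was led by Aqp4 and Hoxb13 and did not show Mki67 or Top2a among its raised markers. Different clusters held the classes in the 2 libraries: goblet-like cells lay in clusters 4 and 6 in NPs and in cluster 9 in UNTX, absorptive-like cells in cluster 3 in NPs and in clusters 2 and 12 in UNTX, and cycling-like cells in cluster 11 in NPs and in cluster 7 in UNTX. No cluster was named Paneth-like, stem-like or tuft-like.

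Slpi lies on chromosome 2 at 164354070 to 164389095 on the minus strand and Wfdc2 on the same chromosome at 164562413 to 164568510 on the plus strand (GRCm38, GENCODE span over all transcripts). RefSeq starts Slpi at 164356507 and Wfdc2 at 164562715, inside those spans. The starts of single GENCODE transcripts were not compared with them. Both WAP genes were far lower in the NPs epithelium, so the 250 bases before their RefSeq starts are shown, taken from RefSeq (GRCm38.p6) and written 5' to 3' on the strand of the gene. The Slpi stretch is chr2:164356508-164356757 (minus) and the Wfdc2 stretch chr2:164562465-164562714 (plus). Capitals mark matches, on either strand, to 5 motifs: CACCC of the Krüppel-like factors, GGGCGG of the Sp factors, TATAAA of the basal promoter, TTTAT of the caudal and posterior Hox factors, and TGACTCA of AP-1.
Slpi: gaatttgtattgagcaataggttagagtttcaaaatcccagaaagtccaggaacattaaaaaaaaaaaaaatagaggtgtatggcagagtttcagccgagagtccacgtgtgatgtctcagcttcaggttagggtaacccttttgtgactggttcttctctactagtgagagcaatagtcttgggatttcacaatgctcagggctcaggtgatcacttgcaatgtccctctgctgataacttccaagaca
Wfdc2: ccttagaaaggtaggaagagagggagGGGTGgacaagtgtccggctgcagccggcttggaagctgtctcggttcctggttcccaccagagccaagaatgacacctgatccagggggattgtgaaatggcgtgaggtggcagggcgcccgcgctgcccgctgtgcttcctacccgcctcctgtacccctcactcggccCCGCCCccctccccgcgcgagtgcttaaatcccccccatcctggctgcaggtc
The Slpi stretch was 42% G or C with 2 CpG dinucleotides and held none of the 5 motifs. The Wfdc2 stretch was 64.8% G or C with 14 CpG dinucleotides, against a median of 52% G or C over 27025 mouse promoters of the same length. It held CACCC on the opposite strand 224 bases before the start and GGGCGG on the opposite strand 53 bases before it. Of all 27025 promoters, 51.3% hold the Krüppel-like motif, 32.9% the Sp motif, 13% the basal motif, 38.1% the caudal and Hox motif, and 4.43% the AP-1 motif. The reverse complement of the caudal and Hox motif lies within the basal motif, so these 2 overlap. A match is a description of the letters in the window.

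In goblet-like cells, the mucus-secreting cells of the gut, Slpi, Wfdc2 and Spink1 were 19.3-fold to 339-fold lower in the NPs library than in the UNTX library, while Spink4 was within 2-fold. Levels are given in CPM, the UMIs of a gene over the UMIs of all genes, both summed over the cells of a class and scaled to a total of 1000000. Slpi stood at 1.74 CPM (1.32 to 2.24, 59 UMIs) in NPs and at 589 CPM (575 to 604, 6192 UMIs) in UNTX. The NPs level was 339-fold lower (262 to 446), a log2 ratio of -8.41. Wfdc2 had 30.1 CPM (28.2 to 32) in NPs and 579 CPM (564 to 593) in UNTX, 19.3-fold lower in NPs (18 to 20.6). Both WAP genes were thus low in the NPs library, and their intervals in the 2 libraries lay far apart.

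Of the Kazal genes, Spink1 lies on chromosome 18 at 43728082 to 43737557 on the minus strand and Spink4 on chromosome 4 at 40920052 to 40931395 on the plus strand (GRCm38). Spink1 measured 50.9 CPM (48.5 to 53.3) in NPs goblet-like cells and 1921 CPM (1894 to 1948) in UNTX goblet-like cells, 37.7-fold lower in NPs (35.9 to 39.7). Spink4 reached 11359 CPM (11324 to 11395) in NPs and 15578 CPM (15502 to 15653) in UNTX, 1.37-fold lower in NPs (1.36 to 1.38). Of the pair of Kazal genes, one was thus far lower in NPs and the other within 2-fold of UNTX.

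Of the 4 genes, 3 were at least 2-fold lower in NPs goblet-like cells and 0 were at least 2-fold higher. Of the 14076 genes measured in this class, with at least 20 UMIs in the library with the higher level, 6.45% were at least 2-fold lower and 14.0% at least 2-fold higher. The median log2 ratio was -4.75 over the 4 genes and 0.17 over all measured genes. Since this contrast was in view when the genes were chosen, nothing is read from the count.

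**Figure D1:**
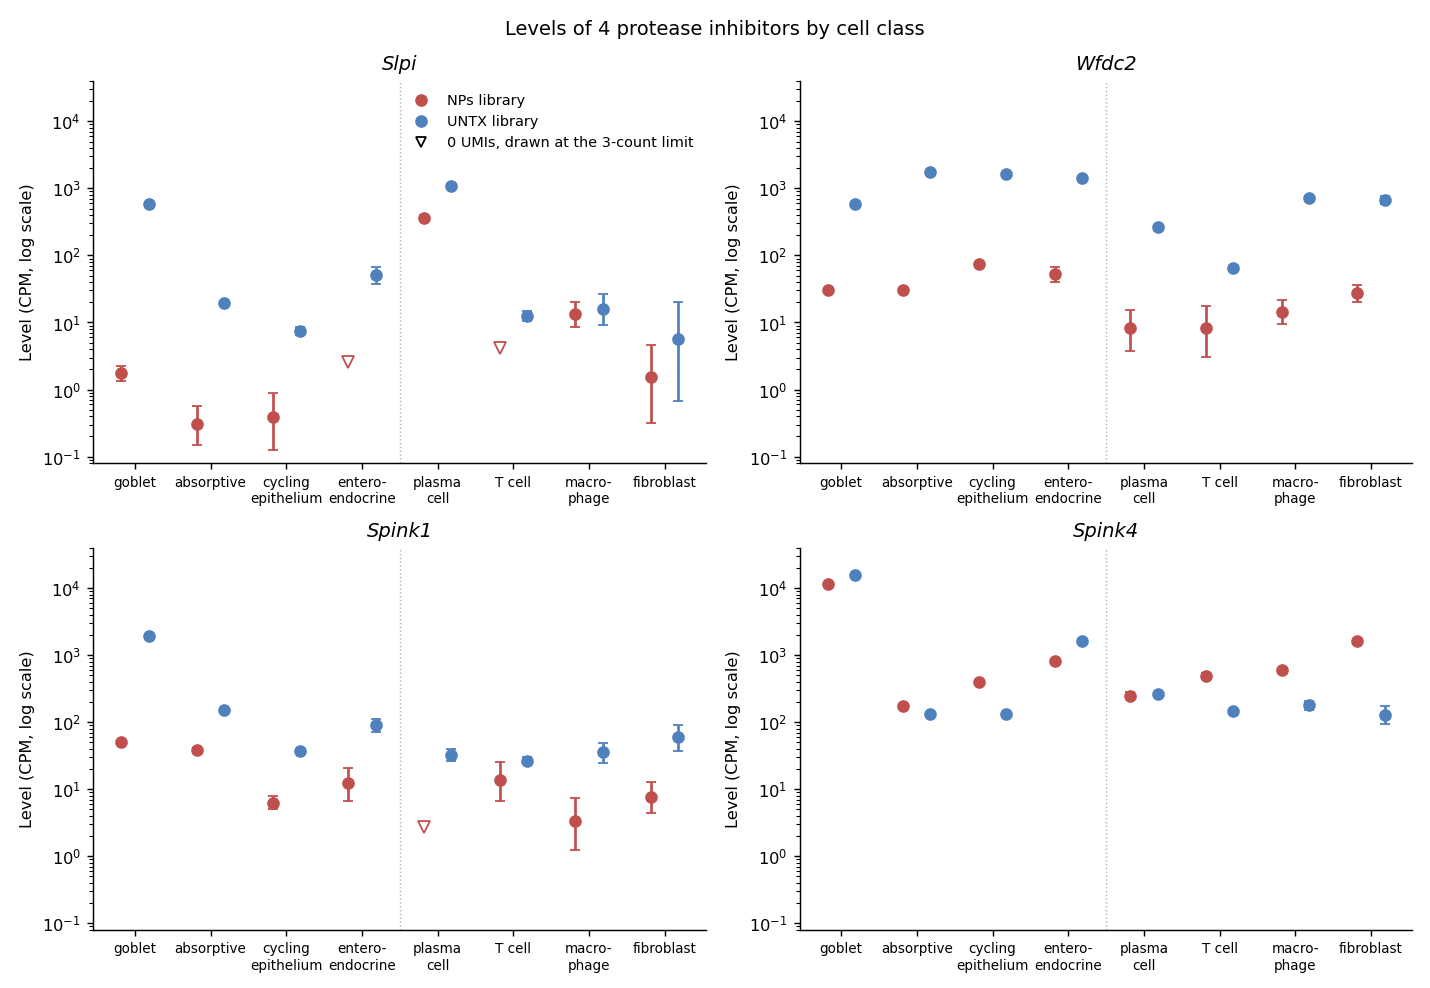
Level of each inhibitor (CPM, logarithmic axis) by cell class in the NPs library and the UNTX library, 1 point per class and library with 95% counting intervals, open triangles standing for 0 UMIs at the 3-count limit. Slpi, Wfdc2 and Spink1 lie lower in NPs than in UNTX in all 4 epithelial classes, and Spink4 lies near 10000 CPM in goblet-like cells of both libraries.

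Fewer NPs than UNTX goblet-like cells held a UMI of the 3 lower genes. Slpi was seen in 1.34% of NPs cells (43 cells) and in 40.6% of UNTX cells (532 cells), although the median NPs goblet-like cell was deeper, at 5056.5 UMIs against 1920 UMIs in UNTX. T cells, taken here as cells that should lack the gene, held a Slpi UMI in 0 of 257 cells in NPs (exact upper limit 1.43%, and 1.17% by the limit of 3 counts) and in 4.74% of cells in UNTX, at median depths of 2611 and 3193 UMIs. Thinning each cell to 1000 UMIs left Slpi in 0.37% of 2975 NPs goblet-like cells and in 24.6% of 1049 UNTX goblet-like cells.

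Wfdc2 was detected in 13.4% of NPs goblet-like cells and 65.9% of UNTX goblet-like cells, and in 3.23% and 44.1% after thinning. In T cells the unthinned share was 1.56% in NPs and 19.6% in UNTX. Spink1 was detected in 10.5% of NPs goblet-like cells and 53.2% of UNTX goblet-like cells, and in 3.06% and 39.4% after thinning, against unthinned shares in T cells of 3.11% in NPs and 8.91% in UNTX. Spink4 was almost universal, in 97% of NPs and 98.6% of UNTX goblet-like cells. Its T cell shares were also high, 68.5% in NPs and 40.2% in UNTX.

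The gap was also present at every depth of cell. In UNTX the share of goblet-like cells with Slpi was 20% in cells of 500 to under 1000 UMIs, 35% in cells of under 3000, 41.3% in cells of under 10000 and 69.4% in cells of 10000 or more. In NPs the same bins held 1.76%, 1.4%, 0.892% and 1.46%. The deepest NPs cells (1304 cells) thus held Slpi less often than the shallowest UNTX cells (260 cells). Spink1 reached 18.5% in the deepest NPs bin and 84.2% in the deepest UNTX bin, and Wfdc2 22.3% and 87.9%.

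**Figure D2:**
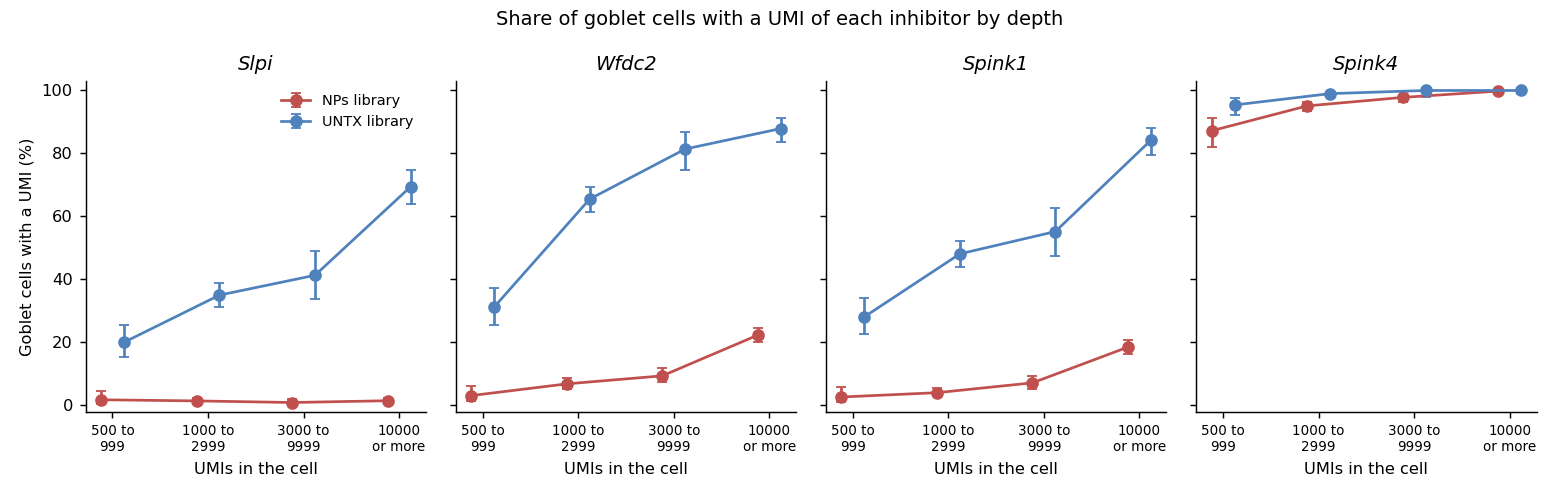
Share of goblet-like cells with at least 1 UMI of each inhibitor (percent) by the depth of the cell (UMIs, 4 bins), for NPs and UNTX, with 95% exact binomial intervals. The NPs line for Slpi stays between 0.892% and 1.76% in all 4 bins while the UNTX line runs between 20% and 69.4%.

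The NPs goblet-like cells were not uniform. They split into cluster 4 (1646 cells), with 12771 CPM of Spink4, and cluster 6 (1553 cells), with 3491 CPM. Over all their cells, these clusters also differed in median depth, at 16459 and 2010.5 UMIs. Their median mitochondrial shares were 2.6% and 9.1%. The part of depth and mitochondrial share in the Spink4 levels was not tested. Slpi stayed low in both, at 1.29 CPM in cluster 4 and 4.28 CPM in cluster 6, and Spink1 stood at 53.6 and 35.6 CPM. UNTX goblet-like cells lay almost wholly in cluster 9 (1297 cells), with Slpi at 606 CPM, Wfdc2 at 593 CPM, Spink1 at 1973 CPM and Spink4 at 15672 CPM.

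A small fraction of goblet-like cells carried much of the Spink1 signal in both libraries and of the Slpi signal in UNTX. The 1% of goblet-like cells with most Slpi held 83.1% of its UMIs in NPs and 43.1% in UNTX, and for Spink1 the shares were 56.3% and 34.6%. The NPs share for Slpi rests on 59 UMIs in few cells. It follows from sparse detection and is not comparable with the UNTX share. Scaled to 10000 UMIs per cell, the highest cell had 16.4 Slpi counts in NPs and 326 in UNTX. The median cell had 37.1 Spink4 counts in NPs and 96.6 in UNTX on the same scale. Thus Spink4 was near equal when UMIs were summed, while the typical UNTX cell carried more of it per UMI.

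Among the 1297 UNTX cells of cluster 9, Slpi and Spink1 tended to lie in the same cells: 67.5% of cells with Slpi also had Spink1, against 43.3% of cells without Slpi. The Pearson correlation of log-scaled counts over these cells was 0.29 for Slpi with Spink1, 0.23 for Slpi with Spink4, -0.09 for Slpi with Wfdc2 and -0.31 for Wfdc2 with Spink4. These cells share 1 library and differ in depth, and weak correlations in sparse counts are no finding.

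In absorptive-like cells, the lining cells of the surface that take up water and salts, Wfdc2 was the inhibitor that set the libraries apart most clearly. Wfdc2 stood at 30.4 CPM (28.6 to 32.4, 987 UMIs) in NPs and at 1768 CPM (1754 to 1782, 58716 UMIs) in UNTX, 58.1-fold lower in NPs (54.5 to 61.9). It was seen in 14.7% of NPs and 91.6% of UNTX cells, and in 2.56% and 72.7% after thinning. The 2 UNTX clusters of the class were alike, with 1871 CPM in cluster 2 and 1548 CPM in cluster 12.

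Slpi was scarce in absorptive-like cells of both libraries, with 0.308 CPM (0.148 to 0.567, 10 UMIs) in NPs and 19.7 CPM (18.2 to 21.2, 653 UMIs) in UNTX. The NPs level was 63.7-fold lower (34.4 to 134). Spink1 had 38.9 CPM (36.8 to 41.1) in NPs and 153 CPM (149 to 158) in UNTX, 3.94-fold lower in NPs (3.7 to 4.19). Spink4 was at 172 CPM (168 to 177) in NPs and 131 CPM (127 to 135) in UNTX, 1.32-fold higher in NPs (1.27 to 1.37), and so within 2-fold. Of the 4 genes, 3 were at least 2-fold lower and 0 at least 2-fold higher, beside 10.6% lower and 25.2% higher of the 13748 genes measured. The median log2 ratio was -3.92 over the 4 genes and 0.40 over all measured genes.

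In cycling-like cells, a class that in UNTX lacked raised Mki67 and Top2a, the same 3 genes were lower in NPs and Spink4 was higher in summed UMIs. Wfdc2 had 74 CPM (69.4 to 78.8) in NPs and 1626 CPM (1612 to 1641) in UNTX, 22-fold lower in NPs (20.6 to 23.4). Slpi had 0.385 CPM (5 UMIs) in NPs and 7.48 CPM (237 UMIs) in UNTX, 19.4-fold lower (8.21 to 60.4). Spink1 had 6.31 CPM in NPs and 37.2 CPM in UNTX, 5.88-fold lower (4.7 to 7.45). These Slpi and Spink1 values were no higher than, or within 1 CPM of, the average of non-epithelial cells in the same library given further on. With the level of all non-epithelial classes subtracted, 1 gene was lower, and the log2 ratio of Spink1 was 3.63, with UNTX at the limit of 3 counts. Spink4 had 392 CPM (381 to 403) in NPs and 133 CPM (129 to 137) in UNTX, 2.95-fold higher (2.83 to 3.08). The top 1% of NPs cells held 49.1% of the Spink4 UMIs of the class. The log2 ratio of Spink4 was 1.56 here, 0.06 with every cell thinned to 1000 UMIs and -0.12 as a mean over cells, so its direction in this class depends on how cells are weighted. Of the 4 genes, 3 were at least 2-fold lower and 1 at least 2-fold higher, beside 8.70% lower and 14.9% higher of 13414 measured genes. The median log2 ratio was -3.42 over the 4 genes and 0.22 over all measured genes.

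Enteroendocrine-like cells, the hormone-secreting cells of the lining, were the smallest of the compared epithelial classes. The median cell of this class had 5330 UMIs in NPs and 1151 UMIs in UNTX. The part of that depth gap in the differences below was not tested. Slpi had 0 UMIs in the 130 NPs cells, where 3 counts would be 2.6 CPM, and 51.1 CPM (37.7 to 67.8) in the 267 UNTX cells, so it was at least 19.6-fold lower in NPs. Wfdc2 had 52.1 CPM (39.7 to 67) in NPs and 1434 CPM (1359 to 1513) in UNTX, 27.5-fold lower (21.3 to 36.3). Spink1 had 12.2 CPM (14 UMIs) in NPs and 89.4 CPM (84 UMIs) in UNTX, 7.36-fold lower (4.15 to 14). Spink4 had 823 CPM (771 to 877) in NPs and 1627 CPM (1546 to 1711) in UNTX, 1.98-fold lower (1.82 to 2.15), an interval that spans 2-fold. Its log2 ratio ran from -9.12, with the non-epithelial level subtracted, to -0.51 under the alternatives tried. Of the 4 genes, 3 were at least 2-fold lower and 0 at least 2-fold higher, beside 4.99% lower and 14.4% higher of 7512 measured genes. The median log2 ratio was -3.59 over the 4 genes and 0.29 over all measured genes.

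**Figure D3:**
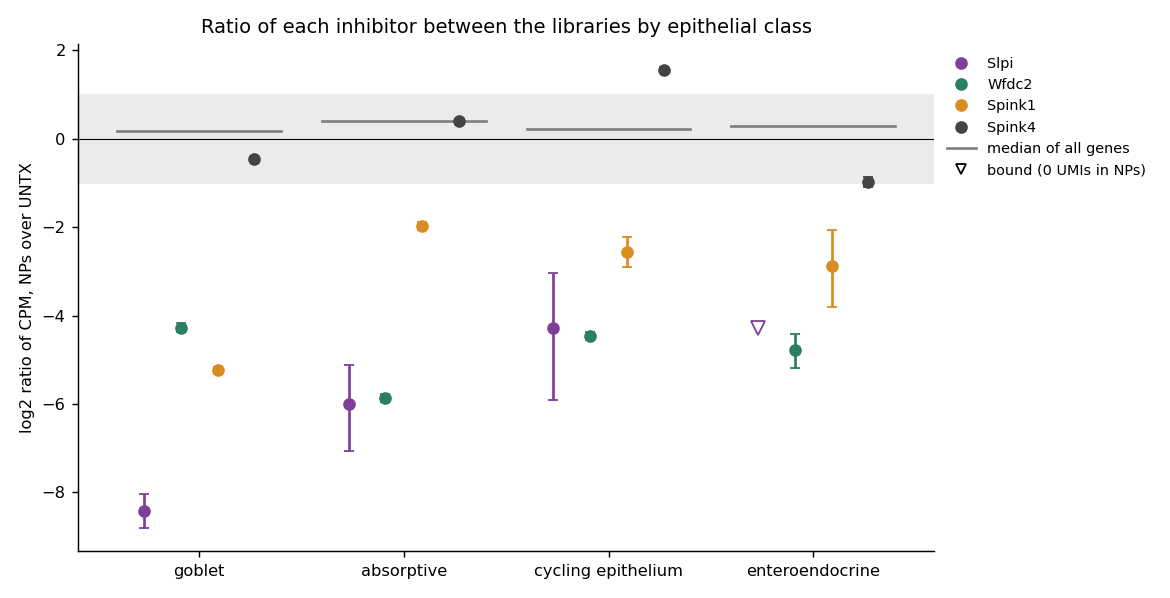
Log2 ratio of each inhibitor, NPs over UNTX, in the 4 epithelial-like classes, with 95% counting intervals. Grey lines are the median of all measured genes, the grey band is within 2-fold, and the open triangle is a bound where NPs had 0 UMIs. Slpi, Wfdc2 and Spink1 lie below -1 in every class shown, and Spink4 lies between -0.98 and 1.56.

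The order of the epithelial classes within a library differed from gene to gene. Spink4 ran goblet, enteroendocrine, cycling, absorptive in both libraries, and in UNTX the intervals of the last pair overlapped. Spink1 ran goblet, absorptive, enteroendocrine, cycling in both, and in NPs the intervals of the last pair overlapped. Slpi was highest in goblet-like cells of both libraries, and the other 3 classes could not be ordered in NPs, where each held at most 10 UMIs. In UNTX Slpi ran goblet, enteroendocrine, absorptive, cycling. The order of Wfdc2 differed between the libraries: cycling, enteroendocrine, then absorptive and goblet with overlapping intervals in NPs, and absorptive, cycling, enteroendocrine, goblet in UNTX. Many of these ranks are of levels near or below the average of non-epithelial cells given further on. Such were all NPs Slpi levels, NPs Spink4 outside goblet-like cells, and UNTX Slpi and Spink4 in cycling-like and absorptive-like cells. Spink1 in cycling-like cells of both libraries was another.

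Of the Spink4 UMIs in all kept cells, goblet-like cells held 94.2% in NPs and 89.7% in UNTX. They held 52.6% of the Spink1 UMIs in NPs and 71.1% in UNTX, and absorptive-like cells held 38.5% and 17.9%. Wfdc2 lay mainly outside goblet-like cells, and in UNTX absorptive-like cells held 44.8% and cycling-like cells 39.3% of its UMIs. A large NPs cluster that met no name, with Reg3g and Reg3b among its leading genes (2734 cells), held 45.3% of the NPs Wfdc2 UMIs at 115 CPM, above every named NPs epithelial class. It had 0.751 CPM of Slpi, 6.72 CPM of Spink1 and 289 CPM of Spink4. A large unnamed UNTX cluster led by Gzma, Ccl5 and Gzmb (3378 cells) had 45.4 CPM of Slpi, 1312 CPM of Wfdc2, 102 CPM of Spink1 and 484 CPM of Spink4.

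The share of posterior Hox transcripts, which mark distal gut segments, also differed between the libraries. It did so in all 4 epithelial classes and in the non-epithelial classes compared. Posterior genes made up 12.4% of Hox UMIs in NPs and 72.8% in UNTX goblet-like cells, 7.04% and 86% in absorptive-like cells, 7.57% and 72.5% in cycling-like cells, and 10.7% and 69.3% in enteroendocrine-like cells. Outside the epithelium the shares were 5.81% in NPs and 78% in UNTX plasma cell-like cells, and 10.1% and 70% in T cells. They were 12% and 74.7% in macrophage-like cells and 24.8% and 75% in fibroblast-like cells. Natural killer or innate lymphoid-like cells had 8.57% and 59.3%. The part of this Hox difference in the differences of the inhibitors was not tested.

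Outside the epithelium, Slpi had its highest level among named classes of at least 50 cells in plasma cell-like cells, the antibody-secreting cells of the mucosa, in both libraries. It stood at 367 CPM (332 to 404, 404 UMIs, 34.2% of 117 cells) in NPs and at 1105 CPM (1065 to 1146, 2877 UMIs, 29.4% of 603 cells) in UNTX, 3.01-fold lower in NPs (2.71 to 3.35). Plasma cell-like cells held 76.2% of the Slpi UMIs in NPs and 25.4% in UNTX, where goblet-like cells held 54.7%. The Slpi of NPs plasma cell-like cells was thus far above the 1.74 CPM of NPs goblet-like cells. A small UNTX cluster named dendritic-like, with Siglech among its leading genes (20 cells), reached 1506 CPM (1283 to 1756), with Slpi in 14 of 20 cells.

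The antibody class of the plasma cell-like cells differed between the libraries. When each cell was assigned to the heavy-chain gene with most UMIs, a split chosen after the values were seen, Igha led in 92.3% of NPs cells and in 58.9% of UNTX cells. In cells led by Igha, Slpi was at 333 CPM (298 to 371, 108 cells) in NPs and 142 CPM (124 to 163, 355 cells) in UNTX, 2.34-fold higher in NPs (1.97 to 2.8). The direction within Igha-led cells was therefore the reverse of that in the whole class. These cells were of unlike depth, with medians of 5958 UMIs in NPs and 1418 UMIs in UNTX. Over all UNTX plasma cell-like cells, Slpi was at 257 CPM in cells of under 1000 UMIs and 1487 CPM in cells of 10000 or more. The part of depth in the 2.34-fold difference was not tested. UNTX cells led by Ighg2b had 2949 CPM (2787 to 3117, 100 cells) and those led by Ighg2c 1536 CPM (1412 to 1669, 116 cells). Constant regions of the IgG genes are related in sequence, and how far reads were split between them was not tested. Smaller UNTX groups led by Ighg3 (12 cells), Ighm (17 cells) and Ighg1 (3 cells) had 3070.4 CPM, 752 CPM and 6644 CPM. Few cells held most of the Slpi UMIs, so the intervals by heavy-chain gene do not cover the spread between cells.

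Within the class, cells with at least 10 Slpi UMIs numbered 12 of 117 in NPs, with 81.4% of the UMIs of the class, and 32 of 603 in UNTX, with 89.7%. The highest cell had 69 UMIs in NPs and 408 in UNTX. The other inhibitors did not stand out in plasma cell-like cells: Wfdc2 had 8.17 CPM in NPs and 267 CPM in UNTX, Spink4 247 CPM and 261 CPM.

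**Figure D4:**
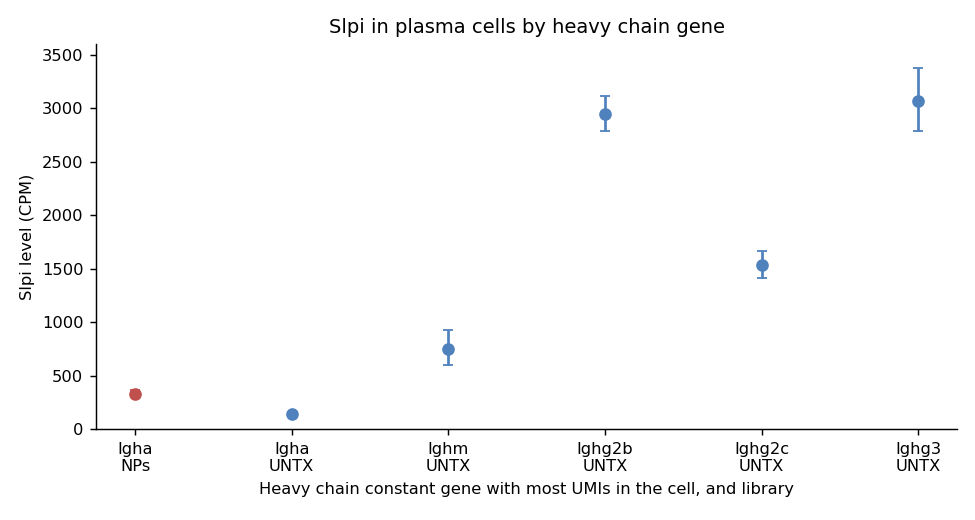
Slpi level (CPM, linear axis from 0) in plasma cell-like cells split by library and by the heavy-chain gene with most UMIs, 1 point per group with its 95% counting interval, NPs in red and UNTX in blue. Igha-led cells stand at 333 CPM in NPs and 142 CPM in UNTX, and UNTX cells led by Ighg2b stand at 2949 CPM. Groups of 3 cells or fewer are not drawn.

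Free RNA released during dissociation enters droplets of every type, so the level of each gene in non-epithelial classes was set beside its epithelial level in the same library. Over all non-epithelial classes other than plasma cells and the dendritic-like cluster, Spink4 stood at 19% of its epithelial level in NPs and 8.03% in UNTX. Spink1 stood at 16.3% in NPs and 12% in UNTX, and Wfdc2 at 47.8% and 9.4%. Slpi stood at 702% (451 to 1072) in NPs and 35.7% (33.2 to 38.3) in UNTX. For comparison, 8 goblet granule genes had a median of 23.3% in NPs and 9.68% in UNTX, and 10 epithelial structural genes 31.1% and 9.35%. Spink4 and Spink1 thus lay near the epithelial genes in both libraries, Wfdc2 did so in UNTX, and Slpi lay above their medians in both. The epithelial level covers named classes alone, without the unnamed NPs cluster that held 45.3% of the NPs Wfdc2 UMIs. The part of that choice in the NPs percent of Wfdc2 was not tested. Over all non-epithelial classes, that percent was 43.2%, and 20.2% with shared barcodes left out.

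**Figure D5:**
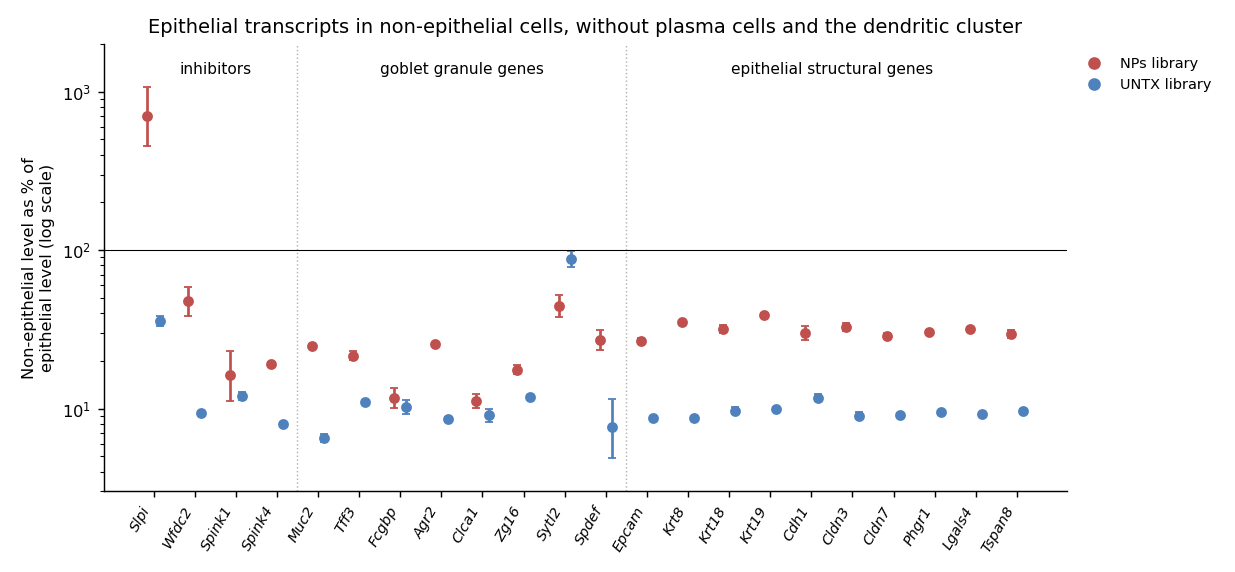
Level of each inhibitor in non-epithelial classes other than plasma cells and the dendritic-like cluster as a percent of its epithelial level (logarithmic axis), NPs and UNTX, with 95% counting intervals, beside the same percent for the goblet granule genes and epithelial structural genes. Spink4 and Spink1 lie in or near the range of the other epithelial genes in both libraries, and Slpi lies above every one of them except Sytl2 in UNTX.

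Several epithelial levels were no higher than these. Over the same non-epithelial classes Slpi averaged 6.45 CPM in NPs and 33.3 CPM in UNTX, above its level in every NPs epithelial class and in UNTX absorptive-like and cycling-like cells. These averages covered unlike classes. In NPs Slpi was at 13.4 CPM in macrophage-like cells, 1.55 CPM in fibroblast-like cells (0.32 to 4.54) and 0 in T cells, so the 1.74 CPM of NPs goblet-like cells lay within the fibroblast interval. In UNTX it was at 43.5 CPM in B cells, 16.1 CPM in macrophage-like cells (9.22 to 26.2), 12.5 CPM in T cells (10.5 to 14.8) and 5.63 CPM in fibroblast-like cells. The 19.7 CPM of UNTX absorptive-like cells was therefore above T cells, within the macrophage interval and below B cells, and the 7.48 CPM of UNTX cycling-like cells was below T cells. Spink1 averaged 6.26 CPM in NPs and 41.7 CPM in UNTX, near its 6.31 CPM in NPs and 37.2 CPM in UNTX cycling-like cells. The UNTX average covered T cells at 26.4 CPM, B cells at 31.9 CPM, fibroblast-like cells at 59.1 CPM and mast cell-like cells at 273 CPM. The part of free RNA in the cycling-like levels was not tested. Spink4 averaged 939 CPM in NPs and 183 CPM in UNTX, above its level in absorptive-like and cycling-like cells of both libraries. The NPs average was also above the 823 CPM of NPs enteroendocrine-like cells. Among the averaged NPs classes of at least 50 cells, fibroblast-like cells had 1597 CPM and the others 416 to 597 CPM. The NPs enteroendocrine-like level thus lay below fibroblast-like cells alone. Above these averages stood Spink4 in goblet-like cells of both libraries and UNTX enteroendocrine-like cells, Spink1 in goblet-like and absorptive-like cells of both and UNTX enteroendocrine-like cells, and Slpi in UNTX goblet-like cells. Slpi in UNTX enteroendocrine-like cells, at 51.1 CPM, and Spink1 in NPs enteroendocrine-like cells, at 12.2 CPM on 14 UMIs, lay nearer to them. Single classes exceeded the averages: UNTX mast cell-like cells held 273 CPM of Spink1 (245 to 305), above the 153 CPM of UNTX absorptive-like cells, and 144 CPM of Slpi (123 to 167).

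Wfdc2 averaged 18 CPM in NPs and 145 CPM in UNTX in those non-epithelial classes, below its level in every epithelial class of the same library. The average hid a wide range. In UNTX it was 715 CPM (663 to 769.8) in macrophage-like cells, 673 CPM (628 to 721) in mast cell-like cells and 678 CPM (595 to 769.7) in fibroblast-like cells, each above the 579 CPM of UNTX goblet-like cells, and 65.7 CPM (60.9 to 70.7) in T cells. The epithelial structural genes had medians of 46.8%, 44% and 38.8% of their epithelial level in those 3 classes and 4.27% in T cells. In NPs, Wfdc2 was 14.5 CPM in macrophage-like cells, 27.4 CPM in fibroblast-like cells and 8.21 CPM in T cells. Wfdc2 is thus not clear of the level in other cells in UNTX goblet-like cells, nor in NPs goblet-like and absorptive-like cells, whose 30.1 and 30.4 CPM lay within the NPs fibroblast interval (20.5 to 35.9).

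The differences between the libraries were also seen in cells that are not epithelial. Wfdc2 was lower in NPs by 49.2-fold (33.3 to 75.9) in macrophage-like, 24.7-fold (18.3 to 34) in fibroblast-like and 8-fold (3.66 to 21.9) in T cells. Spink4 was higher in NPs by 12.3-fold (9.22 to 16.9) in fibroblast-like cells, 3.32-fold in T cells and 3.32-fold in macrophage-like cells. Fibroblast-like NPs cells held 1597 CPM of Spink4, more than NPs enteroendocrine-like cells. How much of any class difference comes from free RNA was not tested.

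Other inhibitors of the same families were few and mixed. Of 20 other WAP genes listed, 4 were measured in goblet-like cells, of which 0 were at least 2-fold lower in NPs, 1 was higher and 3 lay between. Wfdc18 had 97.9 CPM in NPs and 16.6 CPM in UNTX, 5.91-fold higher in NPs (5.08 to 6.93), and Wfdc17 had 26.9 CPM and 24.3 CPM. In absorptive-like cells both genes were lower in NPs, Wfdc17 with 1.7 CPM against 14.1 CPM in UNTX and Wfdc18 with 3.05 CPM against 9.39 CPM. Of 11 other Kazal genes, 2 were measured in goblet-like cells: Spink5, the inhibitor of skin kallikreins, had 0.619 CPM in NPs and 28.4 CPM in UNTX, 45.8-fold lower in NPs (29.4 to 75.2), and Spink10 had 1.36 CPM and 0.666 CPM on 46 and 7 UMIs. None of the 4 measured WAP relatives was thus at least 2-fold lower in NPs goblet-like cells.

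Kunitz inhibitors include the membrane-bound inhibitors of matriptase. Of 5 measured in goblet-like cells, 0 were at least 2-fold lower and 1 was higher. Spint2 had 975 CPM in NPs and 680.5 CPM in UNTX, and Spint1 101 CPM and 78.6 CPM. In absorptive-like cells 0 of 5 were lower and 2 higher: Tfpi2 had 7.46 CPM in NPs and 1.87 CPM in UNTX, and Ambp 1.6 CPM and 0.0602 CPM.

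Serpins trap proteases irreversibly. Of 10 measured in goblet-like cells, 4 were lower and 2 higher, with a median log2 ratio of -0.81. Serpina9 had 0.442 CPM in NPs and 12.8 CPM in UNTX, and Serpinb5 22.6 CPM and 69.2 CPM. B cells, for 1, were unequally sampled, with 3 in NPs and 2941 in UNTX. How much of the serpin values came from RNA of other cells was not tested. In absorptive-like cells 3 of 9 were lower and 2 higher. Cystatins and tissue inhibitors, which act on cysteine proteases and metalloproteases, had 3 of 8 lower and 2 higher in goblet-like cells and 6 of 10 lower and 1 higher in absorptive-like cells. Cst6, an inhibitor of cathepsins and legumain, had 35.9 CPM in NPs and 0.572 CPM in UNTX absorptive-like cells, 62.7-fold higher in NPs (40 to 105). Csta1 had 0.154 CPM and 12.6 CPM there. Inhibitors of other families thus lay in both directions.

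Serine proteases of epithelium and pancreas were mostly within 2-fold in goblet-like cells, where 1 of 13 was lower and 2 higher. Cela1, a chymotrypsin-like elastase, had 33.2 CPM in NPs and 142 CPM in UNTX, 4.29-fold lower in NPs (3.97 to 4.64). In absorptive-like cells 5 of 14 were lower and 2 higher. Tmprss2, a membrane-anchored protease, had 60.3 CPM in NPs and 325 CPM in UNTX, 5.39-fold lower (5.14 to 5.66), and Prss23 had 23.8 CPM and 3.58 CPM, 6.65-fold higher (5.48 to 8.14). The trypsin-sensitive receptor F2rl1, which senses such proteases at the cell surface, was close to equal, with 43 CPM in NPs and 40.4 CPM in UNTX goblet-like cells and 46.8 CPM and 48 CPM in absorptive-like cells.

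Leukocyte serine proteases were measured as granzymes, chymases and a tryptase. Neutrophil elastase (Elane) and cathepsin G (Ctsg), the targets named above for Slpi, did not reach 20 UMIs in these classes. The list had 8 of 10 measured genes lower and 2 higher in NPs goblet-like cells, with a median log2 ratio of -5.43, and 8 of 9 lower and 1 higher in absorptive-like cells, with a median of -3.92. Mcpt1, a mast cell chymase, had 0.854 CPM in NPs and 70.8 CPM in UNTX goblet-like cells, and Gzmb 0.648 CPM and 15.3 CPM in absorptive-like cells. The tryptase was higher in NPs in both classes, with 266 CPM in NPs and 112 CPM in UNTX goblet-like cells. It had 3.73 CPM and 0.783 CPM in absorptive-like cells. The leukocytes that make chymases and granzymes were unequally sampled: mast cell-like cells numbered 7 in NPs and 429 in UNTX, and T cells 257 and 2761. The part of that imbalance in the epithelial values was not tested.

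In the lists that describe the cells themselves, 8 goblet granule genes split in goblet-like cells, 2 lower, 2 higher and 4 between. Zg16, a lectin of the mucus, had 2233 CPM in NPs and 14188 CPM in UNTX, 6.35-fold lower, and the trefoil peptide Tff3 had 1716 CPM and 5269 CPM, 3.07-fold lower. Muc2, the gel-forming mucin, had 16141 CPM in NPs and 5213 CPM in UNTX, 3.1-fold higher, and the goblet transcription factor Spdef 325 CPM and 79.6 CPM, 4.08-fold higher. All 10 epithelial structural genes lay within 2-fold, with a median log2 ratio of -0.29. The goblet-like cells of the 2 libraries thus differed in more of their secreted products than the inhibitors.

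In the smaller classes the same lists were thin. In cycling-like cells 2 of 3 measured WAP relatives, 4 of 10 serpins and 5 of 9 cystatins and tissue inhibitors were at least 2-fold lower in NPs, and 0, 3 and 2 were higher. In enteroendocrine-like cells none of the WAP or Kazal relatives reached 20 UMIs in the higher library, 2 of 4 serpins were lower and 0 higher, and 1 of 9 epithelial and pancreatic proteases was lower and 2 higher.

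For each inhibitor the genes with the most similar profile were taken by the Pearson correlation of log2(CPM + 10) over 21 pairs of class and library, among 10117 genes. The pairs share 2 libraries and their free RNA, so the values describe likeness alone. For Spink4 they were Hpd (0.96), Rep15 (0.96), Pla2g2a (0.95), Bcas1 (0.94) and Reg4 (0.92). For Spink1 they were Sval1 (0.90), Insig1 (0.82), Zg16 (0.82), Msmo1 (0.80) and B3gnt7 (0.79). For Wfdc2 they were the posterior Hox genes Hoxb13 (0.97) and Hoxd13 (0.94) with S100a14 (0.96), Cldn8 (0.94) and Eno3 (0.94). For Slpi they were the antibody genes Ighg2b (0.87), Ighg2c (0.85), Iglc2 (0.79) and Iglc3 (0.79), with the signal peptidase subunit Spcs1 (0.75). Between the inhibitors the highest value was 0.69, for Wfdc2 with Spink1, and Spink4 with Wfdc2 had -0.10.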

How the data were processed

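The deposited files are matrices of raw UMI counts per gene and barcode (3' v3 chemistry), made with Cell Ranger 5.0.1 on GRCm38 per the submitters' processing notes. Nothing was realigned. The filters kept barcodes with 500 or more UMIs, 200 or more genes and no more than 20% of UMIs from mitochondrial genes. Scrublet's own threshold marked under 0.5% of cells, so a fixed score of 0.25 was used per library. The intestinal libraries were clustered jointly (2000 variable genes, 30 components, 15 neighbours, Leiden resolution 1) without the 4 genes and their relatives. Clusters were named from at least 3 markers raised 2-fold. A rule added after the data were seen left a cluster led by lymphocyte genes unnamed. CPM are summed UMIs over the total of a class, with exact Poisson intervals, exact binomial (Clopper-Pearson) intervals for shares and conditional binomial intervals for ratios. UMIs lost before counting are not covered by them. Classes with at least 50 cells in both libraries were compared. With 1 library per group there was no test; a gene was called at 2-fold. The ratio step was tested on simulated data.

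Some results on single genes are not reported here. The 4 genes, the gene lists and the alternatives were chosen with earlier results of these data known. Of each list, the text names among the up to 4 measured genes with the largest log2 ratio in goblet-like and in absorptive-like cells. Clustering used scanpy 1.11.5 with leidenalg 0.10.2 and igraph 0.11.9 under Python 3.11.15, intervals scipy 1.17.1, sums numpy 2.4.6 and tables pandas 2.3.3.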

Additional observations from a re-analysis of the deposited data

Results flagged for a closer look

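Slpi was also counted in the brain libraries, which entered none of the comparisons. It stood at 8.03 CPM (513 UMIs) in the NPs brain library and at 3.39 CPM (239 UMIs) in the UNTX brain library, a ratio of 2.37 (95% counting interval 2.03 to 2.78), and this signal above the untreated level is why it is listed. Each brain group is 1 library, so the difference has no replicate check. Wfdc2 ran the other way there, with 7.11 CPM (454 UMIs) in the NPs brain and 41 CPM (2895 UMIs) in the UNTX brain. Spink4 had 6 UMIs in the NPs brain and 2 in the UNTX brain.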

How the results depend on the processing

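No paired analysis was possible because each group is 1 library, and for the same reason no replicate could be left out. In goblet-like cells the log2 ratios, NPs over UNTX, kept their side of 2-fold under all 17 alternatives, at -12.62 to -6.48 for Slpi, -5.17 to -4.15 for Wfdc2, -5.85 to -4.97 for Spink1 and -0.76 to -0.33 for Spink4. In absorptive-like cells they ran from -6.40 to -3.59 for Slpi, -7.03 to -4.56 for Wfdc2, -2.60 to -1.62 for Spink1 and -0.52 to 0.96 for Spink4. In enteroendocrine-like cells Spink4 stayed within 2-fold in 8 of 17 alternatives, at -9.12 to -0.51. With every cell thinned, Slpi had 0 UMIs in NPs there, so its -0.85 is a bound set by 3 counts. Spink1 had -0.85 on few UMIs, and another draw left it 1 UMI in NPs and 18 in UNTX. Of the 4 genes, 3 or 4 were highest in the same epithelial class as given above under every alternative. The level over all non-epithelial classes, plasma cells included, as a percent of the epithelial level varied over 12 alternatives. For Slpi it was 767% to 11042% in NPs and 65.8% to 168% in UNTX, and for Wfdc2 20.2% to 56.5% and 5.89% to 21.1%. For Spink1 it was 7.86% to 20.4% and 6.88% to 18.2%, and for Spink4 9.53% to 30.4% and 4.91% to 10.8%. In cycling-like cells, which had under 50 cells in 1 library in every other clustering, Spink4 was at -0.12 as a mean over cells, and Spink1 at 3.63 after the non-epithelial level was subtracted, where UNTX fell below that level and was set to 3 counts. The number of inhibitors at least 2-fold higher in cycling-like cells was 1, and 0 with cells thinned, as a mean over cells, or after subtracting the level of non-epithelial cells other than plasma cells and the dendritic-like cluster. The number lower there was 3, and 1 after either subtraction. In enteroendocrine-like cells the number lower was 3, and 1 with a minimum of 100 UMIs.

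Over all genes, counts of genes at least 2-fold higher in NPs absorptive-like cells were 3461, and 2295 with at most 10% mitochondrial UMIs, 5326 with doublets kept, 1580 thinned, 2111 with the median gene at 0 and 2301 with a minimum of 100 UMIs. In cycling-like cells they were 2003, and 1080 thinned and 1192 with 100 UMIs. In enteroendocrine-like cells they were 1085, and 167 thinned, 2059 as a mean over cells, 645 with the median at 0 and 206 with 100 UMIs. In goblet-like cells they were 1969, and 3576 as a mean over cells and 1073 with 100 UMIs. Counts at least 2-fold lower were 1456 in absorptive-like cells, and 839 thinned and 861 with 100 UMIs. They were 1167 in cycling-like cells, and 572 thinned and 661 with 100 UMIs. They were 375 in enteroendocrine-like cells, and 186 thinned, 615 with the median at 0 and 82 with 100 UMIs. They were 908 in goblet-like cells, and 456 thinned and 400 with 100 UMIs. Thinning and a higher minimum leave fewer UMIs or genes to count by construction. Elsewhere the cause was not tested. The alternatives that leave out shared barcodes, count the lymphocyte-led cluster as absorptive or subtract the level without plasma cells were chosen after seeing the data.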

Other observations

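A few cells of each library fell into clusters made almost wholly of the other library, and none of them shared a barcode with it. Of the NPs cells, 13 lay in UNTX-dominated cycling-like cluster 7, with Wfdc2 at 198 CPM, and 20.6% of their Hox UMIs were posterior. Among UNTX cells, 11 lay in NPs-dominated goblet-like cluster 4. They held 286023 UMIs with 0 of Slpi, where 3 counts would be 10.5 CPM, and had Wfdc2 at 80.4 CPM, Spink1 at 55.9 CPM and Spink4 at 12282 CPM. Their posterior Hox share was 62.9% (90 of 143 UMIs). A further 22 UNTX cells lay in the unnamed NPs-dominated cluster with Reg3g among its leading genes, with Wfdc2 at 774 CPM and a posterior Hox share of 52%, and 19 in cycling-like cluster 11, with Wfdc2 at 342 CPM and 65.8%. These groups were noticed after the values were seen, are small, and were not compared by any test.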
